A study of Homo sapiens with 5 samples.

Results

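The Arp2/3 complex is the assembly of actin-related proteins and smaller subunits that starts new actin filaments as branches on the side of existing ones. Its 10 genes considered here, chosen by gene symbol, were ARPC1A, ARPC1B, ARPC2, ARPC3, ARPC4, ARPC5, ARPC5L, ACTR2, ACTR3 and ACTR3B. All 10 were among the 13822 genes of the deposited table, and all 10 passed a filter on low values, a mean over the libraries of at least 1 FPKM (fragments per kilobase of gene, scaled to library size), as did 11094 genes in all. The list was proposed with the difference between the 2 groups already known, so it counts as selected on that contrast, and the subunits' differences, with their calls and intervals from the fit over all genes, are given as a description and not as a test of the subunits.

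Poly-A RNA was sequenced from RH4, an established line of alveolar rhabdomyosarcoma, a tumour with features of skeletal muscle precursors. In 3 libraries the cells had received a control siRNA (si-SCR). In 2 libraries they had received an siRNA (si-circVAMP3) directed at the back-splice junction of circVAMP3, a circular RNA made from exons of the VAMP3 gene. The siRNA dose was 30 nM in both groups, with 24 h from transfection to fresh medium and 24 h from there to collection. The labels name no batch, and no untransfected sample was sequenced.

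The FPKM values stood in ratios of whole reads, so depth could be read back from them. The si-SCR libraries held 25704787, 24339174 and 24233879 assigned read pairs, and the si-circVAMP3 libraries 18153927 and 28149788. The third si-SCR library stood apart from the other si-SCR libraries. The SD over genes of its log2 difference from them was 0.204 and 0.179, against 0.13 between the first and the second and 0.137 between the si-circVAMP3 libraries.

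Markers fixed for the muscle tumour lineage were abundant as a sum, though not each of them. Of 14 myogenic markers 13 were in the table, and their summed level was 1090, 1077 and 933 FPKM in si-SCR and 876 and 890 FPKM in si-circVAMP3. DES, which encodes the muscle intermediate filament protein desmin, was the most abundant of them, with a mean of 269 FPKM, and MYF5 was absent from the table. MYH3 was at 0.501 to 0.746 FPKM over the libraries, under the filter, and PAX3 at 2.13 to 2.46 FPKM. Markers of other cell types had means under 1 FPKM over the libraries or were absent from the table. CORO1A, at a mean of 0.751 FPKM, was the single leukocyte marker of 8 in the table, PECAM1 at 0.109 FPKM the single endothelial marker of 3, and none of 3 epithelial markers was present. Of 4 fibroblast markers 2 were present, the more abundant being PDGFRA at 0.816 FPKM.

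In the complex, ARP2 and ARP3 lie side by side and act as the first subunits of the daughter filament. ARPC2 and ARPC4 form the core that holds them and contacts the mother filament, while ARPC1, ARPC3 and ARPC5 complete the assembly. ARPC1, a protein of WD repeats folded into a propeller, takes part in binding the activators of the WASP and WAVE families. Human cells carry alternative genes for ARPC1 (ARPC1A and ARPC1B), ARPC5 (ARPC5 and ARPC5L) and ARP3 (ACTR3 and ACTR3B), and complexes built with different alternatives differ in activity. Branched actin drives the sheet-like front of moving cells and the invasive contacts through which myoblasts fuse.

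The sequence of the siRNA is shown because a stretch of it recurs in subunit transcripts. In the strand below, capitals mark bases 12 to 18, which pair with bases 2 to 8, the seed, of the complementary strand.
si-circVAMP3: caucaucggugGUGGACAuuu
The siRNA joins 8 bases from the end of VAMP3 exon 4 to 11 bases from the start of exon 3, and this joined run of 19 bases is absent from the linear VAMP3 mRNA. The linear mRNA does hold the marked stretch at 2 places in exon 3, with an unbroken identity to the siRNA of 12 bases at the first. Which of its strands was taken up by Argonaute was not measured.

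The stretch GTGGACA was searched on the sense strand of the MANE Select transcript, the reference transcript of each gene (GENCODE release 44, GRCh38). It was found in 3 of the 10 subunits, near the 30.9% of all genes tested with such a transcript that hold it. In the windows below, which run in the direction of the transcript, capitals mark it.
ARPC1A coding sequence: ctatttatgagGTGGACAagcaagattgtc
ARPC5L coding sequence: gcttccgccggGTGGACAtcgacgaatttg
ARPC5L 3′ UTR: tcccagagaagGTGGACActcttgggctca
ARPC5 3′ UTR: ttcacttcaatGTGGACAgttaagaaggga
The ARPC1A window lies at chr7:99363551-99363580 on the plus strand, in exon 9 of 10. The ARPC5L windows lie at chr9:124869316-124869345, in exon 3 of 6, and at chr9:124877337-124877366, in exon 6, both on the plus strand. The ARPC5 window lies at chr1:183622793-183622822 on the minus strand, in exon 4 of 4. The unbroken identity with the printed strand around the stretch was 8 bases in ARPC1A, 9 and 8 bases in ARPC5L and 7 bases in ARPC5.

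VAMP3, the host gene and a SNARE protein of vesicle fusion, was at 36.4, 35.4 and 37.4 FPKM in si-SCR and at 29.4 and 30.2 FPKM in si-circVAMP3. Both si-circVAMP3 libraries were below all 3 si-SCR libraries, with a log2 difference of -0.29 (SE 0.04, limma adjusted p = 0.00473), short of the fold required for a call. Gene-level values of poly-A RNA do not measure the circular RNA, so VAMP3 does not check the labels.

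A gene was called where limma's adjusted p was under 0.05 and the absolute log2 difference was at least 0.58. By that rule 306 of the 11094 genes were called lower in si-circVAMP3 (2.76%) and 114 were called higher (1.03%). Among the subunits 1 of 10 was called, ARPC1A, which was lower. With the adjusted p alone, 16.7% of the genes tested were lower and 15.8% were higher, and the subunits past it were ARPC1A, which was lower, and ARPC3 and ARPC4, which were higher. Nothing is read from these counts, since the contrast was known when the list was made. In bulk RNA, fewer cells that express a gene and less of its RNA per cell cannot be told apart.

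ARPC1A (ENSG00000241685, chr7:99325898-99366262) was at 16.0, 16.5 and 17.1 FPKM in si-SCR and at 5.57 and 5.63 FPKM in si-circVAMP3. The groups were widely separated, and the libraries within each lay close together. The mean fell from 16.5 ± 0.534 (SD, n = 3) to 5.60 ± 0.0480 FPKM (SD, n = 2), which was 2.95-fold lower. The log2 difference was -1.48 (95% interval -1.60 to -1.36), the 7th lowest of the 11094 genes. It rested on 881, 852 and 879 reads in si-SCR and 213 and 335 reads in si-circVAMP3, and for the shallowest library the exact 95% interval, which covers counting error only, was 4.84 to 6.37 FPKM. Without the third si-SCR library the log2 difference was -1.46.

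ARPC1B (ENSG00000130429) encodes the alternative ARPC1 protein and starts downstream of ARPC1A on the same strand, at chr7:99374249-99394816. It was at 7.79, 7.47 and 5.96 FPKM in si-SCR and at 7.90 and 8.20 FPKM in si-circVAMP3. The groups did not overlap, but the third si-SCR library alone was well below the rest. The log2 difference was 0.18 (95% interval -0.08 to 0.44) and 0.07 without that library. Where the aligned coding sequences of the 2 genes were compared, 70.8% of bases were identical, with a longest identical run of 17 bases, and ARPC1B does not hold the 7-base stretch.

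ARPC1A and ARPC1B fill the same place in the complex, so their ratio within a library was taken. ARPC1A over ARPC1B was 2.05, 2.21 and 2.86 in si-SCR and 0.704 and 0.687 in si-circVAMP3. ARPC1A was thus the more abundant of the pair by FPKM in every si-SCR library and the less abundant in both si-circVAMP3 libraries. The mean ratio in si-circVAMP3 was 0.293 of that in si-SCR, and 0.326 of it without the third si-SCR library. Divided by MANE transcript length instead, a scale chosen after seeing the data, ARPC1A was at 21.6 and ARPC1B at 18.7 on that scale in si-SCR, and at 7.31 and 21.3 in si-circVAMP3. The si-SCR ranges on it were 20.9 to 22.3 for ARPC1A and 15.7 to 20.6 for ARPC1B, without overlap but close. How far ARPC1A exceeded ARPC1B in si-SCR thus depends on the length used.

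The levels of this pair carry a limit of annotation. In GENCODE release 44 a readthrough gene, ENSG00000284292, covers 76.5% of the bases of the ARPC1A MANE transcript and 85.5% of those of ARPC1B, and it is not in the deposited table. Where an annotation holds such a gene, the authors' strict counting mode assigns reads lying wholly in shared exons to no gene. The paper names the Ensembl release used for its annotation, but the gene models of that release were not at hand here. Whether they held the readthrough gene was therefore not checked, and the ARPC1A and ARPC1B levels may be understated. The exon of ARPC1A with the 7-base stretch may lie in the shared portion, which is given here only as a share of bases.

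**Figure D1:**
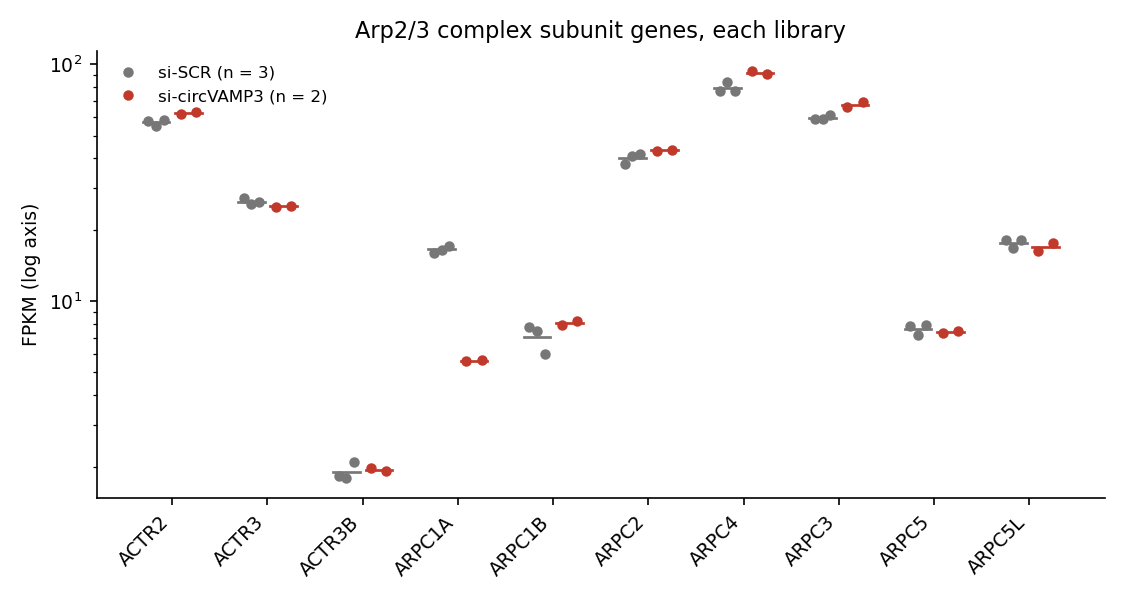
FPKM of each subunit gene (log axis) in the 3 si-SCR libraries (grey) and the 2 si-circVAMP3 libraries (red), with points for libraries and horizontal lines for group means. ARPC1A falls from 16.0 to 17.1 FPKM in si-SCR to 5.57 and 5.63 FPKM in si-circVAMP3, and the other genes sit at similar heights in both groups.

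The actin-related proteins themselves differed little. ACTR2, which encodes ARP2, was at 57.8, 54.7 and 58.2 FPKM in si-SCR and at 61.4 and 63.0 FPKM in si-circVAMP3. The si-circVAMP3 values were above all si-SCR values, by 0.13 on the log2 scale (95% interval 0.02 to 0.23). ACTR3, which encodes ARP3, was at 27.2, 25.7 and 26.1 FPKM in si-SCR and at 25.0 and 25.3 FPKM in si-circVAMP3. Here the si-circVAMP3 values were the lower ones, with a log2 difference of -0.06 (95% interval -0.17 to 0.04), or -0.04 without the first si-SCR library. ACTR3B, the less abundant ARP3 gene, ranged from 1.79 to 2.08 FPKM over the 5 libraries, and its groups overlapped through the third si-SCR library alone. The log2 difference of ACTR3B was 0.03, with -0.005 to 0.08 when 1 library was left out, so its direction was not set. ACTR3 over ACTR3B was 14.9, 14.3 and 12.5 in si-SCR and 12.7 and 13.2 in si-circVAMP3. These overlap through the third si-SCR library alone, and the mean ratio in si-circVAMP3 was 0.930 of that in si-SCR, or 0.886 of it without that library.

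ARPC2 and ARPC4 form the core of the complex. ARPC2 was at 38.1, 41.2 and 41.7 FPKM in si-SCR and at 43.0 and 43.6 FPKM in si-circVAMP3. Its groups did not overlap, and the log2 difference of 0.10 (95% interval -0.02 to 0.22) was small beside the fold required for a call and became 0.06 without the first si-SCR library. ARPC4 was at 77.0, 83.8 and 77.3 FPKM in si-SCR and at 93.6 and 90.9 FPKM in si-circVAMP3, also without overlap. Its log2 difference of 0.22 (95% interval 0.10 to 0.34) was also under that fold. ARPC4 shares 37.8% of its MANE transcript with the readthrough gene ARPC4-TTLL3, named after its values were seen, which was itself at 0.767 to 1.19 FPKM.

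ARPC3, which lies beside ARP3 in the complex, was at 58.6, 58.7 and 60.9 FPKM in si-SCR and at 66.0 and 69.1 FPKM in si-circVAMP3. Both si-circVAMP3 libraries were higher than every si-SCR library, by 0.18 on the log2 scale (95% interval 0.08 to 0.28). ARPC5 and ARPC5L, which anchor ARPC1 to the rest of the complex, both hold the 7-base stretch. ARPC5 was at 7.82, 7.17 and 7.93 FPKM in si-SCR and at 7.35 and 7.47 FPKM in si-circVAMP3. ARPC5L was at 18.2, 16.7 and 18.1 FPKM in si-SCR and at 16.3 and 17.6 FPKM in si-circVAMP3. The groups overlapped for both genes, with log2 differences of -0.04 (95% interval -0.19 to 0.11) for ARPC5 and -0.06 (95% interval -0.20 to 0.08) for ARPC5L. With 1 library left out they ranged from -0.08 to -0.01 for ARPC5 and from -0.11 to -0.002 for ARPC5L. ARPC5L over ARPC5 was 2.32, 2.34 and 2.29 in si-SCR and 2.22 and 2.36 in si-circVAMP3, again with overlap.

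**Figure D2:**
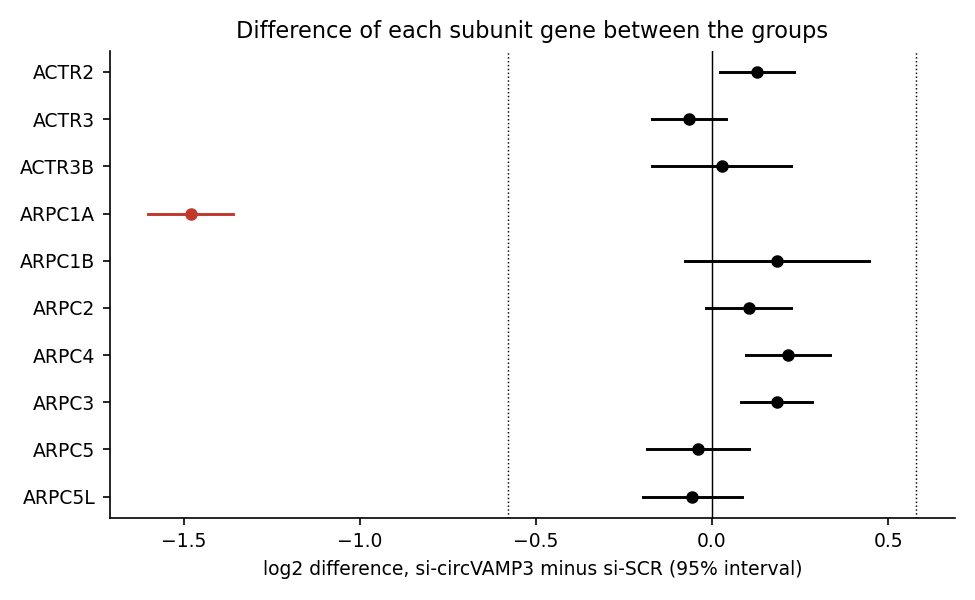
Log2 difference of each subunit gene, si-circVAMP3 minus si-SCR, with its 95% interval from limma over 3 and 2 libraries; dotted lines mark the 0.58 in either direction that a call requires, and red marks the called gene. ARPC1A lies at -1.48 and the other subunits between -0.06 and 0.22.

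**Figure D3:**
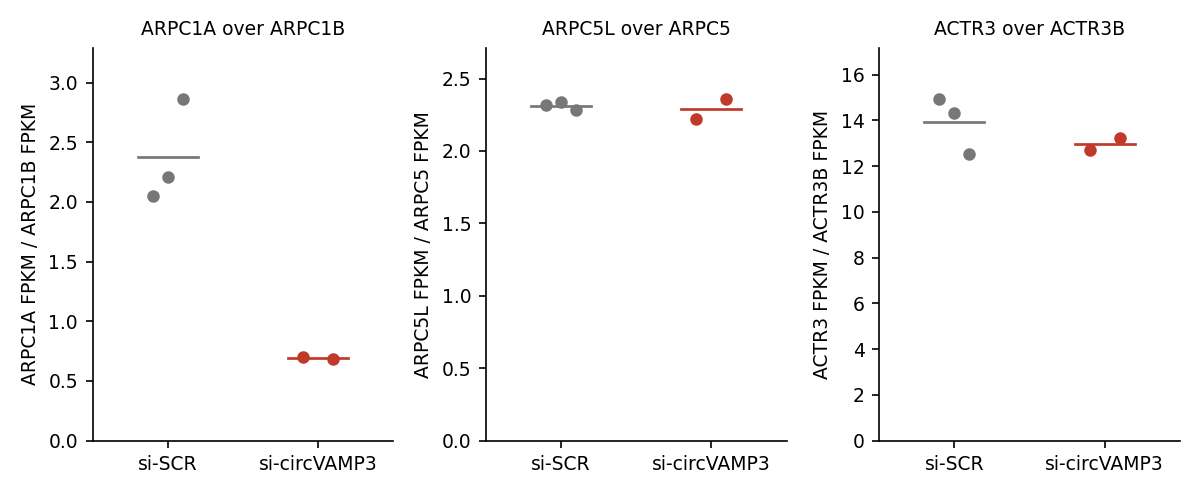
FPKM ratio of the alternative genes for ARPC1, ARPC5 and ARP3 in each library (points), with group means (lines) and axes that start at 0. The ratio of ARPC1A to ARPC1B goes from 2.05 or more in si-SCR to 0.704 or less in si-circVAMP3, and the ratios of the other pairs overlap between the groups, for ACTR3 over ACTR3B through 1 si-SCR library.

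Counting the subunits without overlap between the groups gives 2 of 10 lower, ARPC1A and ACTR3, against 29.1% of the genes tested, and 5 of 10 higher, against 30.7%. Those 5 were ARPC1B, ARPC2, ARPC3, ARPC4 and ACTR2. For each of these 7 the sign was kept when the libraries were quantile normalized. The median log2 difference was 0.07 over the 10 subunits (0.03 without the first si-SCR library) and 0.01 over all genes tested.

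Within si-SCR the order by FPKM was ARPC4, ARPC3, ACTR2, ARPC2, ACTR3, ARPC5L, ARPC1A, ARPC5, ARPC1B and ACTR3B, a 41.8-fold span between the means of the first and last. Neighbours whose ranges overlapped were ARPC5L with ARPC1A and ARPC5 with ARPC1B, so neither order is set by these libraries. In si-circVAMP3 ARPC1A moved from rank 7 to rank 9, below ARPC1B and ARPC5, and ARPC1B came before ARPC5, while the other genes kept their order. By MANE transcript length ARPC2 came before ACTR2, and ARPC1B came before ARPC5. On that scale the si-SCR range of ARPC3 overlapped those of ARPC4 and ARPC2, so the order among these genes is not set. The order thus depends on the length that divides the reads.

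The siRNA stretch in the subunits was set beside its frequency elsewhere. Of 10095 genes tested that have a MANE transcript, 30.9% held GTGGACA, as did 206 of the 274 among them called lower (75.2%) and 18 of the 95 called higher (18.9%). The share called lower was 6.6% among genes with the stretch and 0.97% among genes without it. For CGATGAT, which pairs with the seed of the printed strand, these shares were 2.47% and 2.73%. Longer transcripts hold a given stretch more often, so the shares were also taken within 4 equally filled classes of transcript length. In the shortest class, which includes ARPC1A with its 1582 bases, the share called lower was 9.93% with the stretch and 0.95% without, and in the longest 4.47% and 0.76%. These shares take a match anywhere in the transcript. For a match in the coding sequence, where that of ARPC1A lies, the share over all lengths was 5.93% with it and 1.83% without. For a match in the 3′ UTR it was 9.89% and 1.8%. A match describes the sequence only. ARPC5 and ARPC5L hold the stretch, both in the 3′ UTR and ARPC5L also in the coding sequence, and were not called. The part of the stretch in the ARPC1A result was not tested.

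**Figure D4:**
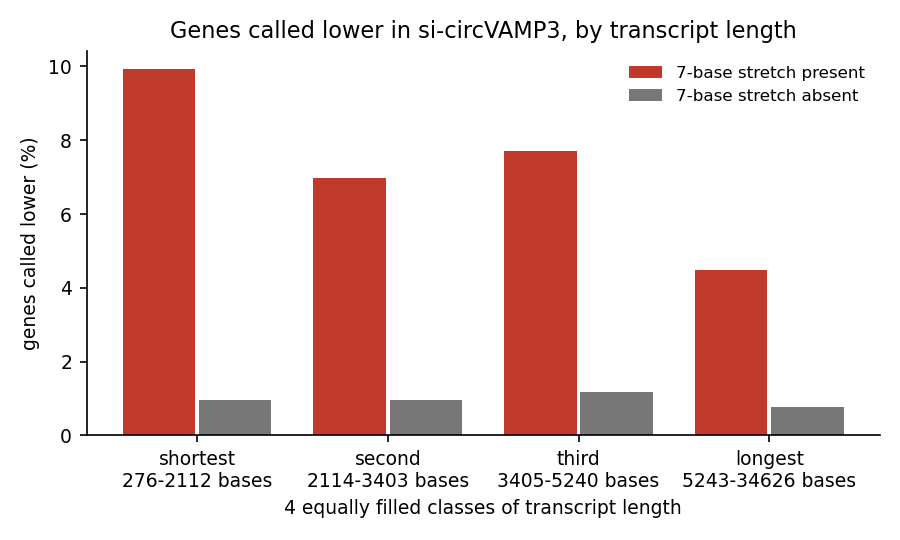
Percent of genes called lower in si-circVAMP3 (vertical axis, from 0) in 4 equally filled classes of MANE transcript length, for genes whose transcript holds GTGGACA (red) and genes whose transcript does not (grey). The share is 9.93% against 0.95% in the shortest class and 4.47% against 0.76% in the longest.

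The genes nearest to ARPC1A in pattern were taken by Euclidean distance of log2 values centred over the 5 libraries. They were MPC2, a subunit of the mitochondrial pyruvate carrier (distance 0.0688), RYK, a receptor for Wnt ligands (distance 0.0985), and WDR1, a WD-repeat protein that works with cofilin in taking actin filaments apart (distance 0.121). WDR1 was at 43.6, 44.4 and 42.6 FPKM in si-SCR and at 15.1 and 14.4 FPKM in si-circVAMP3. Its log2 difference was -1.53, and those of MPC2 and RYK were -1.47 and -1.54, low values that the choice by pattern fixes. In their MANE transcripts GTGGACA was found in the coding sequence of RYK and WDR1 and in the 3′ UTR of MPC2. Of all genes called lower that have such a transcript, 75.2% hold it.

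Around the complex, 7 lists of genes, for its activators, its opponents, capping proteins, other nucleators and actin-related proteins outside it, held 71 genes, of which 56 were in the table and 48 were tested. By the call rule 2 of the 48 were called, both lower, TWF1 and LMOD3, against 2.76% of all genes tested. With the adjusted p alone 6 of 48 were lower and 8 higher, against 16.7% and 15.8% of all genes tested. At an unadjusted p under 0.05 limma gave 8 lower and 12 higher, against 21.9% and 22.3% of all genes tested. The median log2 difference over the 48 was 0.03. Of these 48 genes 11 held GTGGACA.

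TWF1 encodes twinfilin, which binds actin monomers and capping protein at filament ends. It was at 20.5, 19.7 and 20.9 FPKM in si-SCR and at 6.26 and 5.79 FPKM in si-circVAMP3, without overlap. Its log2 difference was -1.68 (SE 0.05, limma adjusted p = 4.29e-05, lower in both si-circVAMP3 libraries). Its MANE transcript holds GTGGACA in the coding sequence and in the 3′ UTR, there at chr12:43793757-43793786 on the minus strand. In the 3′ UTR the unbroken identity was 10 bases within the joined run of 19 bases. It was 12 bases only with the printed bases beyond that run counted.
TWF1 3′ UTR: catgccttctgGTGGACAttttataagtgc
The other capping genes tested were not called, and the list's median was 0.10, or 0.04 without the third si-SCR library. CAPZA1, a subunit of capping protein named after its values were seen, was at 126, 122 and 128 FPKM in si-SCR and at 172 and 164 FPKM in si-circVAMP3, a log2 difference of 0.42 (limma adjusted p = 0.0013, higher in both si-circVAMP3 libraries) that is under the fold for a call.

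LMOD3, leiomodin 3, starts actin filaments in skeletal muscle and belongs to the list of formins and other nucleators, whose median was -0.07 over 10 tested genes (-0.01 without the second si-circVAMP3 library). It was at 6.73, 5.39 and 4.80 FPKM in si-SCR and at 2.62 and 2.53 FPKM in si-circVAMP3. The log2 difference was -0.99 (SE 0.13, limma adjusted p = 0.00278, lower in both si-circVAMP3 libraries), and GTGGACA is not in its MANE transcript. Of the 12 myogenic markers tested, 3 were also called lower, MYOG, CHRNG and MYL4, against 2.76% of all genes tested. CHRNG at -0.59 and MYL4 at -0.59 lay just past the fold for a call. Without the second si-circVAMP3 library they were at -0.55 and -0.54 and 1 marker was called, without the second si-SCR library MYL4 was not called, and with a pseudocount of 1 CHRNG was not called. MYOG, the transcription factor myogenin, was at 175, 179 and 149 FPKM in si-SCR and at 101 and 96.6 FPKM in si-circVAMP3. Of the 12, 11 had a negative log2 difference, where the median over all genes tested was 0.01. Among these 11 the groups overlapped for DES, CDH15, FGFR4 and PIPOX, where 29.1% of all genes tested were lower without overlap. Past the adjusted p alone were MYOG, CHRNG, MYL4 and FOXO1, against 16.7% of all genes tested that were lower by it. The exception in sign was MYOD1, another myogenic transcription factor, at 0.20 with overlap between the groups. The part of the myogenic markers in the LMOD3 result was not tested.

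Activators of the complex were not called. Nucleation promoting factors, the proteins that switch the complex on, had a median of 0.06 over 9 tested genes (0.02 without the second si-circVAMP3 library), and WASF2, the most abundant, was at 28.0, 28.7 and 25.7 FPKM in si-SCR and at 29.8 and 27.4 FPKM in si-circVAMP3. The WAVE regulatory complex, which holds WASF proteins inactive until it is switched on, had a median of -0.01 over 5 tested genes (0.03 without the third si-SCR library), and its most abundant gene, BRK1, ranged from 238 to 273 FPKM with overlap between the groups. The WASH complex, which calls Arp2/3 to endosomes, had a median of 0.07 over 6 tested genes (0.04 to 0.11 with 1 library left out). WASHC5 ranged from 14.3 to 15.6 FPKM, also with overlap. With the adjusted p alone, 1 of the 9 nucleation promoting factors and 2 of the 5 WAVE genes were higher, with none lower. Of the 6 WASH genes 1 was lower and 2 were higher, against 16.7% and 15.8% of all genes tested.

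Genes that oppose the complex or remove branches were not called either, with a median of 0.10 over 6 tested genes, or 0.05 without the third si-SCR library. Leaving out either si-circVAMP3 library gave 0.03 and 0.17. CORO1C, the most abundant of this list and a coronin that binds actin filaments, was at 54.6, 56.6 and 58.2 FPKM in si-SCR and at 52.9 and 52.4 FPKM in si-circVAMP3, a log2 difference of -0.10 (limma adjusted p = 0.12). CORO1B, another coronin and also named after its values were seen, had a log2 difference of 0.50 and was called higher (0.59) when the first si-SCR library was left out. GMFB, glia maturation factor beta, takes branches apart by binding the complex and was named after its values were seen. It was at 26.4, 25.6 and 25.0 FPKM in si-SCR and at 18.6 and 18.4 FPKM in si-circVAMP3, without overlap. Its log2 difference of -0.46 (SE 0.04, limma adjusted p = 0.000974, lower in both si-circVAMP3 libraries) did not reach the fold for a call, and its MANE transcript does not hold GTGGACA.

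Actin-related proteins outside the complex, which serve dynactin and chromatin remodellers, had a median of 0.01 over 7 tested genes (-0.02 to 0.04 with 1 library left out). The most abundant, ACTL6A, was at 47.3, 47.8 and 49.4 FPKM in si-SCR and at 53.6 and 51.8 FPKM in si-circVAMP3, a log2 difference of 0.13 (limma adjusted p = 0.0558). ACTB, the gene of the actin monomer beta-actin, was at 916, 981 and 914 FPKM in si-SCR and at 834 and 848 FPKM in si-circVAMP3. Its log2 difference was -0.16, lower in both si-circVAMP3 libraries and not called, and it became -0.30 under quantile normalization. ACTG1, which encodes gamma-actin, ranged from 470 to 526 FPKM, with overlap and a log2 difference of 0.02 that became -0.16 under that normalization. Transcripts of both actin genes hold GTGGACA in the coding sequence.

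**Figure D5:**
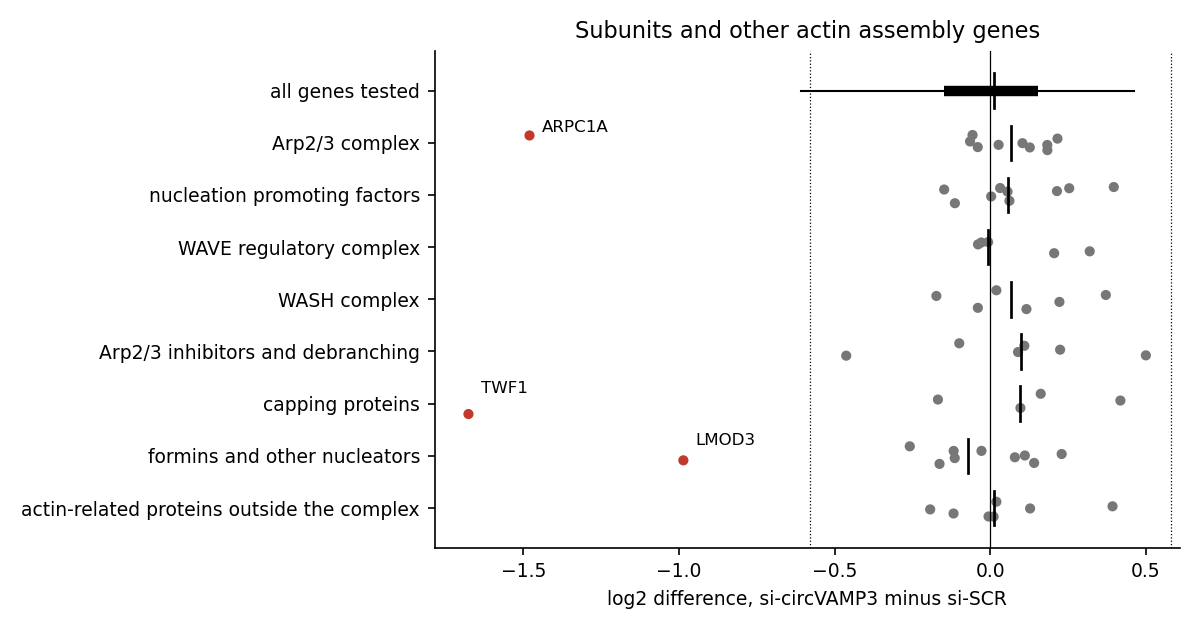
Log2 difference, si-circVAMP3 minus si-SCR, of each tested gene (points) in the Arp2/3 complex and the 7 lists, with medians as black ticks; the top row gives all 11094 genes, with the 25 to 75 percentile range as a thick bar and the 2.5 to 97.5 percentile range (-0.61 to 0.46) as a thin line. The called genes ARPC1A, TWF1 and LMOD3 (red) lie at -1.48, -1.68 and -0.99, left of the dotted line that marks the fold for a call.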

How the data were processed

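The authors sequenced stranded poly-A libraries and, per the labels, used bcl2fastq 2.20.0.422, Trimmomatic, STAR 2.5.2b on GRCh38, HTSeq and edgeR. The authors describe a filter on CPM and deposited FPKM values per gene; 616 of 13819 genes in the table were under 1 CPM in at least 3 of these libraries, so its exact form is not known here. Because FPKM is not a count, limma 3.58.1 (R 4.3.3; eBayes with trend) was fitted to log2(FPKM + 0.5) for the 11094 genes with a mean of at least 1 FPKM, with group as the only term and Benjamini-Hochberg adjustment over all of them. The fit was tested on simulated data. Whole reads were recovered for 13819 of 13822 genes (relative tolerance 1e-12), which gave depth and counting intervals; these cover counting error only. The members and lists were chosen with earlier results of these data known. Named genes were all subunits, VAMP3, ACTB, ACTG1, each list's called genes or else its most abundant gene, and the 3 genes nearest to ARPC1A. Genes of the marker lists were also named, for their abundance, absence, adjusted p, sign or overlap. CAPZA1, CORO1B, GMFB and ARPC4-TTLL3 were added after their values were seen. Of 8 lists drawn up, 1 was left out after the data were seen, for a reason other than its values. Alternatives varied the pseudocount, filter, scaling, trend, call rule, replicate block and libraries; voom on recovered reads and MANE lengths were added after seeing the data.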

Additional observations from a re-analysis of the deposited data

How the results depend on the processing

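The log2 difference of ARPC1A ranged from -1.56 to -1.41 over 14 alternative fits, a description of the contrast on which the list was selected and no support for it. Not all of these fits could move it, since the filter and the trend do not enter the estimate of a gene, which stayed at -1.48. The counts over all genes, 306 lower and 114 higher, became 1850 and 1756 with the adjusted p alone. They became 188 and 55 at a mean of at least 5 FPKM, where fewer genes were tested, and 420 and 166 with voom on the recovered reads, an alternative chosen after seeing the data. Leaving out single libraries gave 297 to 324 lower and 98 to 145 higher; with 1 si-circVAMP3 library left, that library was assumed to vary like the others. With the adjusted p alone 2 subunits were higher, and 6 list genes were lower and 8 higher. At 5 FPKM 1 list gene was called lower, since LMOD3 was no longer tested. Leaving out single libraries gave 0 to 1 list genes called higher, which was CORO1B without the first si-SCR library; the cause was not tested. With a replicate block the counts were 323 and 122 and the ARPC1A log2 difference was -1.46. The third si-SCR library is alone in its block, so this estimate is the same as the one without that library. Only 2 replicate numbers occur in both groups, and libraries that share a number did not vary together (correlation of their deviations -0.17 and -0.04), so the paired fit is given here only. With 3 and 2 libraries, the 95% intervals of the other subunits' log2 differences lay between -0.20 and 0.44.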
